A study of Mus musculus with 26 samples.

Results

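The 10 genes described here encode core factors of the nucleolus, the nuclear body in which ribosomes are made: Ncl, Npm1, Fbl, Nop56, Nop58, Dkc1, Polr1a, Polr1b, Nolc1 and Ubtf. They were chosen by name from the 55291 genes of a count table of poly(A)-selected RNA, and all 10 passed the filter on low counts that kept 20953 genes. The 26 libraries came from R1, a mouse embryonic stem cell (ESC) line grown with LIF on gelatin, and formed 13 groups of 2 replicates. The study asked whether routes to a state like that of the 2-cell (2C) embryo depend on the transcription factor Dux, on its phase separation and on a super-enhancer near the Tdpoz genes. Wild-type cells were left untreated (ESC), given the solvent (DMSO), given 0.53 µM retinoic acid for 48 h (RA) or given 4 nM PlaB for 4 days (PlaB). The sample labels state no time for DMSO, the control of both RA and PlaB, so culture time may not match in these comparisons. Wild-type cells on doxycycline for 24 h expressed Dux (Dux OE), Dux carrying the change labelled R70A (Dux R70A OE) or Zscan4 (Zscan4 OE), with a dose of 4 µg/mL stated for Dux. Cells with Dux knocked down (Dux KD) received RA, PlaB or Zscan4 overexpression, and cells whose Tdpoz super-enhancer was removed with CRISPR-Cas9 (SE KO) received RA, PlaB or Dux overexpression. The Dux KD and SE KO groups had no untreated or DMSO-treated library of their own genotype in the data used here, so each was compared with wild-type cells under the same treatment. The sources used here do not say how many clones stood behind either genotype.

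In the nucleolus, RNA polymerase I transcribes the ribosomal DNA, small nucleolar ribonucleoproteins (snoRNPs) modify the transcript, and further factors cut it and assemble it with ribosomal proteins into the 2 subunits. Ubtf binds the ribosomal DNA and opens it for transcription, and Polr1a and Polr1b are the largest subunits of RNA polymerase I. Fbl (fibrillarin) is the methyltransferase of the box C/D snoRNPs, whose scaffold is a pair of related proteins, Nop56 and Nop58. Dkc1 (dyskerin) is the pseudouridine synthase of the box H/ACA snoRNPs, and Nolc1 escorts snoRNPs. Ncl (nucleolin) acts in transcription and processing of ribosomal RNA, and Npm1 (nucleophosmin) builds the outer nucleolar layer. In ESCs the rim of the nucleolus is a repressive compartment where the Dux locus is held, and Ncl is known as part of the machinery that silences it.

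Library totals ran from 14401452 to 39402840 counts with a median of 18276934, and the 10 genes took 0.392% to 1.12% of each total. Each had between 576 and 169381 counts in every library. Levels are given as CPM, counts scaled to 1000000 per library. All 10 ESC markers were detected in every group, with a summed level of 3322 to 9113 CPM, lowest in SE KO RA and highest in DMSO. The Duxf3 gene, the Dux row of the table, had 191 and 181 counts in PlaB against 1 and 0 in Dux KD PlaB, 49 and 59 in RA against 16 and 6 in Dux KD RA, and 27 and 17 in Zscan4 OE against 1 and 0 in Dux KD Zscan4 OE. The reduction was therefore nearly complete in PlaB and partial in RA. Counts in Dux KD Zscan4 OE were as low as those in untreated ESCs (3 and 0), and induction of Zscan4 there rests on the library titles. Both Dux R70A OE libraries had 0 counts of Duxf3 (0 allows up to 3 per library), against 55 and 48 in Dux OE, so the row does not check the R70A transgene. Nor does it check that of Dux, since Dux OE (4.01 and 3.24 CPM) stood below PlaB (9.25 and 8.21 CPM), which had no transgene. Whether both forms were expressed alike is therefore not shown. One library titled SE KO RA carries the genotype label WT and was kept by its title. Replicates of SE KO PlaB and Dux KD Zscan4 OE differed more than those of other groups, with chi-square values per degree of freedom of 30.2 and 26.1 over the genes, against 1.55 to 9.81 elsewhere.

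On mm10 the genes lie apart: Ncl at chr1:86344719-86359400, Nop58 at chr1:59684971-59719044, Nop56 at chr2:130274430-130279313, Polr1b at chr2:129100995-129126594, Polr1a at chr6:71909053-71984935, Fbl at chr7:28169710-28179269, Npm1 at chr11:33152287-33163206, Ubtf at chr11:102304560-102319742, Nolc1 at chr19:46075863-46085530 and Dkc1 at chrX:75095854-75109777. Ncl, Npm1 and Ubtf are on the minus strand and the others on the plus strand. Reads were counted over the exons of each gene, 2665 (Npm1) to 11871 (Polr1a) bases in all. Several of these genes host snoRNA genes: 5 lie within Nop56, 4 within Nop58, 3 within Ncl and 1 within Dkc1. At most 8.12% of a gene's exonic bases, in Nop56, were shared with another gene. A different limit is sequence held in common with other transcripts. Of the distinct 50-base words in each gene's annotated transcripts, 24.3% for Npm1, 19.7% for Fbl and 18.6% for Nop56 also occur in other genes, against at most 2.31% for the other 7. The values of those 3 genes are therefore less certain, since reads from such words could be split or dropped in counting. For Npm1 the main partner is the processed pseudogene Gm9118, for Fbl the gene Tulp4, and for Nop56 the processed pseudogene AC122861.1.

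Promoter sequence from RefSeq (GRCm38.p6, the same build) was at hand for 8 of the 10 genes, as 13 windows of 250 bases before to 50 after an annotated start. A GC box (GGGCGG on either strand, the core of Sp-family sites) occurred in windows of 6 of these 8 genes, 75%, compared with 63% of the 13364 tested genes with a window. The E-box CACGTG, the core recognized by Myc and its partners, was in 0 of the 13 windows, while 9.42% of the windows of tested genes hold it. These letters were searched only in that window. The CCAAT box (CCAAT on either strand) was in 4 of 13 windows, against 37.8% of the windows of tested genes. The promoters of 5 genes are shown because their genes parted in PlaB: Ncl, Polr1b and Nolc1 fell there, and Nop56 and Nop58 rose. Each line gives the 150 bases just upstream of the gene's first exonic base in RefSeq or in the table's annotation, whichever lies further upstream, 5′ to 3′ on the gene's strand, with GC boxes in capitals.
Ncl, chr1:86359456-86359605, minus strand: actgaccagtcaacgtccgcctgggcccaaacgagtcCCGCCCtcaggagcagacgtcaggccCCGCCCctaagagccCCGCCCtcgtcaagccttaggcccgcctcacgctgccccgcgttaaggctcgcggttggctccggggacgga
Polr1b, chr2:129100845-129100994, plus strand: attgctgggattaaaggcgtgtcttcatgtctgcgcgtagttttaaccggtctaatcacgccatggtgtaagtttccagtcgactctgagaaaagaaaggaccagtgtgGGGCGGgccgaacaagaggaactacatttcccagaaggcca
Nolc1, chr19:46075697-46075846, plus strand: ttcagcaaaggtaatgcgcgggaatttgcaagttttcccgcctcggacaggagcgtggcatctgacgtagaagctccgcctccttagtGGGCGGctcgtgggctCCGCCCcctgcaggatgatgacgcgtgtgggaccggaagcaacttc
Nop56, chr2:130274262-130274411, plus strand: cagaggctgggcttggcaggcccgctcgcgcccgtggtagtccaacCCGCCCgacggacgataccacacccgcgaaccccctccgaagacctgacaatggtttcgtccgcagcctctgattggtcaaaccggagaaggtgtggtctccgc
Nop58, chr1:59684821-59684970, plus strand: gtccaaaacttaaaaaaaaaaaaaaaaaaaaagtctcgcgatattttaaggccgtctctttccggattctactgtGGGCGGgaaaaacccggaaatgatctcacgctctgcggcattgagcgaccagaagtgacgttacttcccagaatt
The Ncl stretch held 3 GC boxes, that of Nolc1 2, and those of Polr1b, Nop56 and Nop58 1 each. The matching stretches of Dkc1, Polr1a and Ubtf, which also fell in PlaB, held 0 each. For Ubtf that stretch lies at its most upstream start, and its other windows held 1, 2, 8, 3 and 4 GC boxes.

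In untreated ESCs, Npm1 and Ncl were by far the most abundant of the 10 mRNAs. Per kilobase of annotated exon, Npm1 stood at 899 CPM per kb, Ncl at 374 and Nolc1 at 169.7. Nop56 (113), Fbl (92.8), Dkc1 (78.6), Ubtf (67.3), Nop58 (50.9) and Polr1b (48.1) followed, and the polymerase subunit Polr1a was lowest at 14.4 CPM per kb. The order among the 3 most abundant genes should be read with the shared words of Npm1 in mind. Exon length here is every annotated exonic base, 10188 for Ncl and 10758 for Nop58, and 1 mRNA need not hold them all. The order per kilobase therefore depends on the annotation. In CPM alone Ncl (3820 and 3792) stood above Npm1 (2382 and 2408) in ESC.

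Across the 13 groups the summed level of the 10 mRNAs was lowest in SE KO RA (3784 and 3896 CPM), PlaB (4419.8 and 4111 CPM) and RA (4663 and 4680.4 CPM). The 2 control groups stood at 9468 and 9516 CPM (ESC) and 11038 and 10734 CPM (DMSO), and the highest level was in Dux KD Zscan4 OE (11784 and 11494 CPM). These 3 lowest groups did not overlap with each other or with any other group. From the lowest upwards the order went on through Dux R70A OE, Dux KD RA, Dux OE, SE KO PlaB, ESC, SE KO Dux OE, Dux KD PlaB, Zscan4 OE, DMSO and Dux KD Zscan4 OE, and 4 of the 12 neighbouring pairs overlapped: Dux R70A OE with Dux KD RA, Dux OE with SE KO PlaB, SE KO Dux OE with Dux KD PlaB, and Zscan4 OE with DMSO. Ncl and Npm1 make up most of this sum, so it says little of the other 8.

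**Figure D1:**
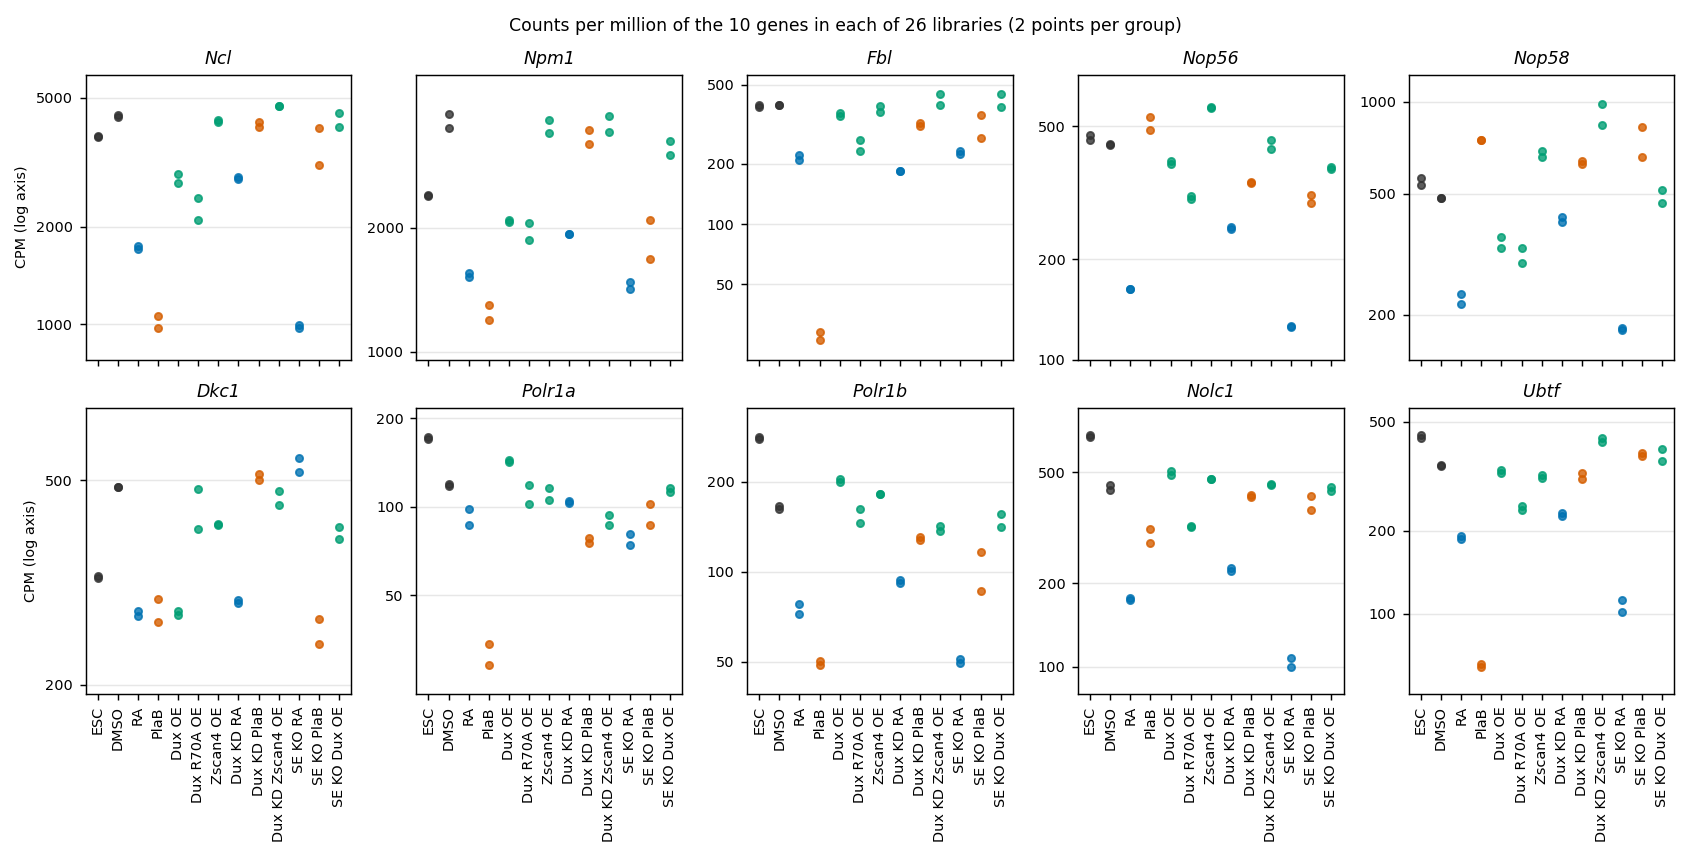
CPM (log axis, scaled to effective library totals) of each of the 10 genes in the 13 groups, with 1 point per library (2 per group). Black marks the control groups, blue the RA groups, orange the PlaB groups and green the overexpression groups. Fbl stood at 28.8 and 26.1 CPM in PlaB and at 185 CPM or more in every other library.

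Single genes kept different orders, as the plot of levels by group shows. Fbl had the widest range, from 27.5 CPM in PlaB to 421 CPM in Dux KD Zscan4 OE (group means), a 15.3-fold span. Ubtf (6.79-fold), Nolc1 (6.50-fold), Polr1b (5.64-fold) and Polr1a (5.46-fold) each peaked in untreated ESCs. Ncl (4.79-fold) and Nop58 (5.08-fold) peaked in Dux KD Zscan4 OE, Nop56 (4.52-fold) in Zscan4 OE and Npm1 (2.91-fold) in DMSO. Dkc1 had the narrowest range, 2.10-fold, and it alone was highest in SE KO RA, the group in which Ncl, Nop56, Nop58 and Nolc1 were lowest. Of the 12 neighbouring pairs in each gene's order, between 2 (Nolc1) and 6 (Npm1 and Polr1a) overlapped in their replicates. For Ncl the overlapping neighbours were SE KO RA with PlaB, Dux OE with Dux KD RA, SE KO PlaB with ESC, and Zscan4 OE with SE KO Dux OE and that with DMSO. The median range of the 10 genes was 2.39 on the log2 scale, beside 1.82 for the 5739 abundant genes, those whose mean log2 CPM was 5 or higher.

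PlaB is the usual short name of pladienolide B, an inhibitor of the spliceosome, although the labels do not spell it out, and it served as one chemical route to the 2C-like state. The 10 genes split in PlaB. Relative to DMSO, all 10 genes passed the test (2 higher, 8 lower), 6 of them by 2-fold or more. Of all genes tested, 77.1% passed (41.7% higher, 35.4% lower), 58.9% by 2-fold. Those that fell included Fbl (14.4-fold lower), Ubtf (5.32-fold), Ncl (4.33-fold), Polr1a (3.77-fold) and Polr1b (3.31-fold), whereas the box C/D scaffold pair Nop56 and Nop58 rose. With so many genes changed, the number called says little about these 10, and their sizes are of more use: their median log2 fold change was -1.63, beside 0.22 over all genes tested and -0.58 over the 5739 abundant ones. The 6 of 10 that changed by 2-fold all fell, where 26.6% of all genes tested fell that far. Of the abundant genes 31.5% were higher and 58.7% lower at adjusted p under 0.05. In bulk RNA, fewer cells of a type and less RNA per cell cannot be told apart.

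Among the transcription factors of the ribosomal DNA, Ubtf fell from 343 and 347 CPM in DMSO to 65.7 and 64.0 CPM in PlaB (log2 fold change -2.41 ± 0.074 SE, adjusted p = 9.7e-21). Polr1a went from 117 and 119.6 CPM to 34.0 and 28.9 CPM (log2 fold change -1.92 ± 0.098 SE, adjusted p = 5.0e-16). Polr1b went from 162 and 165 CPM to 48.8 and 50.2 CPM (log2 fold change -1.73 ± 0.098 SE, adjusted p = 5.1e-15). In all 3 the PlaB libraries lay far below the DMSO libraries. Of the abundant structural proteins, Ncl fell from 4414 and 4363 CPM to 1058 and 969 CPM (log2 fold change -2.11 ± 0.097 SE, adjusted p = 4.5e-17). Npm1 went from 3769 and 3486 CPM to 1299 and 1194 CPM (log2 fold change -1.54 ± 0.089 SE, adjusted p = 7.2e-15). The snoRNP proteins outside the box C/D core changed less. Dkc1 stood at 484 and 485 CPM in DMSO and 294 and 265 CPM in PlaB (log2 fold change -0.79 ± 0.080 SE, adjusted p = 1.0e-09), and Nolc1 at 430.3 and 449 CPM and 312 and 278 CPM (log2 fold change -0.58 ± 0.071 SE, adjusted p = 4.1e-08). Here too the groups did not overlap.

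The box C/D proteins work as one particle, yet the counts of their genes parted in PlaB. Counts over annotated exons do not tell spliced from unspliced RNA, and splicing was not measured here. Fbl dropped from 393 and 396 CPM to 28.8 and 26.1 CPM (log2 fold change -3.85 ± 0.11 SE, adjusted p = 2.5e-21). Nop58 rose from 484 and 485 CPM to 748 and 749 CPM (log2 fold change 0.63 ± 0.092 SE, adjusted p = 7.1e-07). Nop56 went from 441 and 437 CPM to 530.5 and 486 CPM (log2 fold change 0.21 ± 0.066 SE, adjusted p = 0.00524). The rise of Nop56 was small. It missed the threshold without PlaB replicate 1 (adjusted p = 0.0821, edgeR) and against ESC in place of DMSO. Within a library, where no scaling between libraries enters, the Fbl level was 89.3 and 90.5% of the Nop56 level in DMSO and 5.42 and 5.38% in PlaB. Against Nop58 it was 81.3 and 81.6% in DMSO and 3.84 and 3.49% in PlaB. No other group came near: Fbl was at least 64.2% of Nop56 and at least 32.7% of Nop58 in every other library. Tulp4, which holds most of the words that Fbl shares with other genes, stood at 13.3 and 13.8 CPM in DMSO and 18.8 and 14.6 CPM in PlaB. The pseudogene Gm9118, which shares words with Npm1, went from 74.9 and 67.7 CPM to 21.8 and 18.3 CPM, and AC122861.1, which shares words with Nop56, had at most 5 counts in any library.

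Markers moved with this comparison. The summed level of 6 markers of 2C-like cells was 5.05 and 3.02 CPM in DMSO and 7173 and 7240.1 CPM in PlaB, with all 6 higher and Zfp352 at 0 in DMSO. The 10 ESC markers summed to 8963 and 9113 CPM and 5527 and 5026 CPM, with 2 higher and 8 lower and none at 0. The 6 markers of primitive endoderm summed to 140.5 and 145 CPM and 53.2 and 61.8 CPM, with 3 higher and 2 lower, a median log2 fold change of 0.75 and none at 0. Of 10 p53 targets, 6 rose (5 by 2-fold) and 4 fell (2 by 2-fold), so the list was split. Those that rose included Mdm2, which restrains p53 (1343 and 1446 CPM against 71.3 and 65.5 CPM, log2 fold change 4.35 ± 0.10 SE, adjusted p = 6.1e-23), and Cdkn1a, a cell-cycle inhibitor (499 and 496 CPM against 74.3 and 72.9 CPM, log2 fold change 2.76 ± 0.13 SE, adjusted p = 3.8e-17). The part of any of these in the nucleolar genes was not tested.

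Under PlaB, both Dux KD and SE KO cells held most of these mRNAs at a higher level than wild-type cells. In Dux KD PlaB against PlaB, all 10 genes passed the test (8 higher, 2 lower), 6 of them by 2-fold or more. Over the whole table, 74.3% passed (35.5% higher, 38.8% lower), 54.9% by 2-fold, 26.1% upwards. The median log2 fold change of the 10 was 1.33, beside -0.14 over all genes and 0.53 over the 5739 abundant ones (58.1% higher, 31.1% lower). For SE KO PlaB against PlaB, 8 of the 10 genes passed the test (7 higher, 1 lower), 5 of them by 2-fold or more. Among all tested genes, 72% passed (35.5% higher, 36.5% lower), 52% by 2-fold, 25.9% upwards. The median log2 fold changes were 0.81 for the 10, -0.067 for all genes and 0.47 for the abundant ones (56.1% higher, 32.7% lower). Both comparisons and that of PlaB with DMSO share the PlaB libraries, so opposite signs are partly built in, and the levels themselves are more direct. The 2C markers summed to 4.95 and 5.08 CPM in Dux KD PlaB and 578 and 477 CPM in SE KO PlaB. The calls among the 10 ESC markers were 7 higher and 3 lower in Dux KD PlaB (median log2 fold change 1.59), with 5 higher and 4 lower in SE KO PlaB (0.79). Those among the 6 primitive endoderm markers were 4 higher and 2 lower (0.94) in the knockdown, with 5 higher (2.80) in the knockout. The part of these markers was not tested.

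Fbl, at 28.8 and 26.1 CPM in PlaB, stood at 323 and 310.4 CPM in Dux KD PlaB (log2 fold change 3.53 ± 0.11 SE, adjusted p = 1.6e-20) and at 271 and 349.9 CPM in SE KO PlaB (log2 fold change 3.50 ± 0.11 SE, adjusted p = 2.1e-20). Ubtf stood at 324 and 309.8 CPM (log2 fold change 2.29 ± 0.074 SE, adjusted p = 3.6e-20) and 373 and 383 CPM (log2 fold change 2.54 ± 0.075 SE, adjusted p = 6.1e-21). Ncl stood at 4211 and 4063 CPM (log2 fold change 2.03 ± 0.096 SE, adjusted p = 1.2e-16) and 4031 and 3091 CPM (log2 fold change 1.81 ± 0.096 SE, adjusted p = 1.3e-15). For these 3 genes every Dux KD PlaB and SE KO PlaB library exceeded both PlaB libraries. Polr1a was higher by 1.29 ± 0.098 (SE; adjusted p = 3.2e-12) in Dux KD and 1.59 ± 0.097 (SE; adjusted p = 3.2e-14) in SE KO on the log2 scale, and Polr1b by 1.38 ± 0.098 (SE; adjusted p = 7.2e-13) and 1.03 ± 0.097 (SE; adjusted p = 2.8e-10). Nolc1 differed by 0.48 ± 0.071 (SE; adjusted p = 1.1e-06) and 0.40 ± 0.071 (SE; adjusted p = 1.7e-05). Npm1 differed by 1.42 ± 0.089 (SE; adjusted p = 4.9e-14) in Dux KD and 0.60 ± 0.087 (SE; adjusted p = 8.3e-07) in SE KO.

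The scaffold pair, which had risen in PlaB, did not pass as higher in either genotype. Nop56 was lower than in PlaB in both genotypes, at 339 and 337 CPM in Dux KD (log2 fold change -0.59 ± 0.066 SE, adjusted p = 8.3e-09) and 294 and 311 CPM in SE KO (log2 fold change -0.75 ± 0.066 SE, adjusted p = 7.7e-11). Nop58 was lower in Dux KD PlaB, at 639.9 and 627 CPM (log2 fold change -0.24 ± 0.091 SE, adjusted p = 0.0196), a call lost when any 1 of the 4 libraries was left out (adjusted p = 0.0553 to 0.0872, edgeR). In SE KO PlaB it stood at 828 and 659.7 CPM and did not pass the test (log2 fold change -0.0089 ± 0.091 SE, adjusted p = 0.938). Dkc1 was higher in Dux KD PlaB (513 and 500.0 CPM; log2 fold change 0.86 ± 0.080 SE, adjusted p = 2.5e-10) but stood at 269 and 240.5 CPM in SE KO PlaB (log2 fold change -0.14 ± 0.080 SE, adjusted p = 0.128), where it did not pass. Without SE KO PlaB replicate 1 it passed as lower (adjusted p = 0.0272, edgeR). The difference between the 2 genotypes under PlaB was not tested.

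Dux KD PlaB was also set against DMSO directly, although genotype and treatment both differ there. In that comparison 5 of the 10 genes passed the test (1 higher, 4 lower), and none (0) by 2-fold or more. In the full set of genes, 34.7% passed (17.7% higher, 17.1% lower), 11.7% by 2-fold. Among the abundant genes 21.7% were higher and 28.6% lower, so the number called is near that share. The 10 log2 fold changes ran from -0.63 to 0.39. The 4 lower genes were Polr1a (log2 -0.63 ± 0.093 SE, adjusted p = 7.1e-06), Nop56 (log2 -0.38 ± 0.066 SE, adjusted p = 6.4e-05), Polr1b (log2 -0.35 ± 0.094 SE, adjusted p = 0.00509) and Fbl (log2 -0.32 ± 0.096 SE, adjusted p = 0.0111). Fbl lost its call without DMSO replicate 2 or without Dux KD PlaB replicate 2 (adjusted p = 0.0589 to 0.0909, edgeR). Nop58 was the 1 higher gene (log2 0.39 ± 0.091 SE, adjusted p = 0.00157). Fitted with only these 4 libraries, 9 of the 10 passed. In the same libraries all 10 p53 targets were higher than in DMSO, for example Trp53inp1, a p53-induced nuclear protein (605 and 593 CPM against 125 and 122 CPM, log2 fold change 2.28 ± 0.13 SE, adjusted p = 4.4e-13), and the 2C markers stood at 4.95 and 5.08 CPM against 5.05 and 3.02 CPM.

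**Figure D2:**
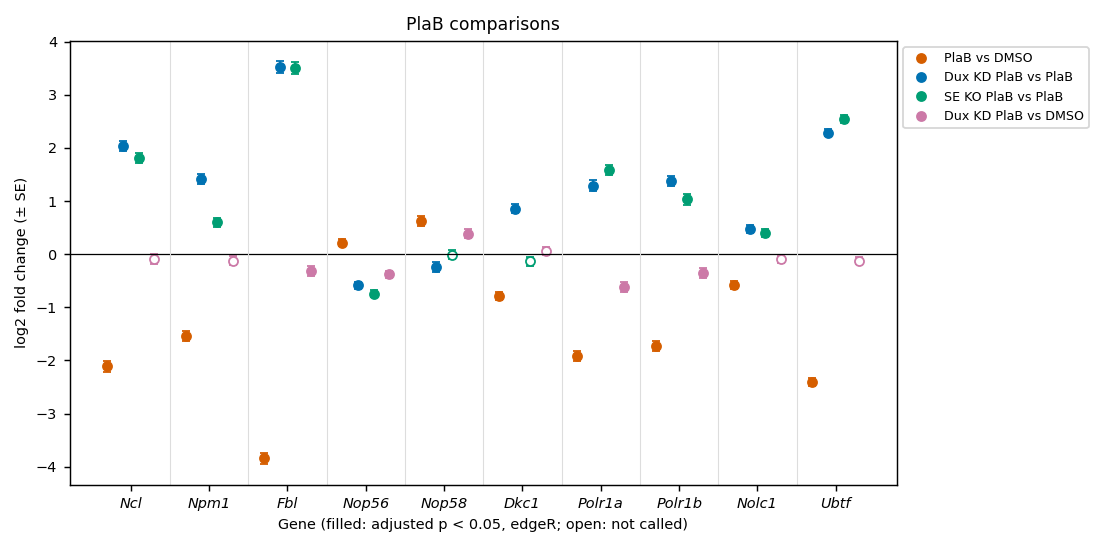
Log2 fold change with its SE for each gene in PlaB against DMSO, Dux KD PlaB against PlaB, SE KO PlaB against PlaB and Dux KD PlaB against DMSO (2 libraries per group; filled points passed adjusted p < 0.05, edgeR). Fbl lies at -3.85 in PlaB against DMSO and at 3.53 and 3.50 in the knockdown and knockout against PlaB, while Nop56 shows the opposite signs.

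All 10 genes were lower in RA. Relative to DMSO, all 10 genes passed the test (0 higher, 10 lower), 6 of them by 2-fold or more. Across the genes tested, 58.9% passed (32.3% higher, 26.6% lower), 31% by 2-fold. No gene rose (0 by edgeR, 0 at an unadjusted p under 0.05 and 0 by DESeq2). The log2 fold changes ran from -1.43 (Nop56) to -0.36 (Polr1a) with a median of -1.11, beside 0.10 over all genes and -0.20 over the abundant ones (48.7% lower), and 10.4% of all genes fell by 2-fold or more. In RA 65.7% of the calls over all genes were higher when libraries were scaled by their totals alone, in place of 54.8%.

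Nop56 fell from 441 and 437 CPM to 162 and 163 CPM (log2 fold change -1.43 ± 0.068 SE, adjusted p = 8.9e-16). Nop58 went from 484 and 485 CPM to 235 and 217 CPM (log2 fold change -1.10 ± 0.093 SE, adjusted p = 8.6e-11), so the scaffold pair that rose in PlaB fell in RA. Fbl went from 393 and 396 CPM to 210.4 and 221 CPM (log2 fold change -0.87 ± 0.097 SE, adjusted p = 1.4e-08). Within a library Fbl was 129.5 and 136% of Nop56 in RA, above its share in DMSO. Ncl fell from 4414 and 4363 CPM to 1707 and 1741 CPM (log2 fold change -1.35 ± 0.094 SE, adjusted p = 2.3e-12). Npm1 went from 3769 and 3486 CPM to 1550.0 and 1521 CPM (log2 fold change -1.24 ± 0.088 SE, adjusted p = 3.0e-12). Nolc1 went from 430.3 and 449 CPM to 174 and 176 CPM (log2 fold change -1.33 ± 0.072 SE, adjusted p = 1.5e-14). Polr1b dropped from 162 and 165 CPM to 72.1 and 78.2 CPM (log2 fold change -1.12 ± 0.095 SE, adjusted p = 9.5e-11), and Polr1a, the other large polymerase subunit, from 117 and 119.6 CPM to 86.5 and 98.1 CPM (log2 fold change -0.36 ± 0.092 SE, adjusted p = 0.00144). In none of the 10 did the RA and DMSO libraries overlap. Ubtf (log2 -0.86 ± 0.070 SE, adjusted p = 4.5e-11) and Dkc1 (log2 -0.82 ± 0.080 SE, adjusted p = 1.6e-09) also fell, on the log2 scale. The 2C markers summed to 534 and 463 CPM in RA, the ESC markers to 4217 and 4236 CPM and the primitive endoderm markers to 653 and 691 CPM, the last with all 6 higher than in DMSO and none at 0. Their part in the fall was not tested.

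Dux KD cells in RA had somewhat more of these mRNAs than wild-type cells in RA: 7 of the 10 genes passed the test (7 higher, 0 lower), and none (0) by 2-fold or more. Of the tested genes, 37.3% passed (18% higher, 19.2% lower), 10.9% by 2-fold. Their log2 fold changes ran from -0.22 to 0.86, with a median of 0.32 beside 0.015 over all genes and -0.011 over the abundant ones. No gene passed as lower (0 by edgeR, 1 at an unadjusted p under 0.05 and 0 by DESeq2). Nop58 rose from 235 and 217 CPM to 419 and 405 CPM (log2 fold change 0.86 ± 0.093 SE, adjusted p = 4.9e-08). Ncl went from 1707 and 1741 CPM to 2841 and 2801 CPM (log2 fold change 0.71 ± 0.093 SE, adjusted p = 1.1e-06). Nop56 went from 162 and 163 CPM to 249 and 246 CPM (log2 fold change 0.60 ± 0.067 SE, adjusted p = 8.9e-08). These Dux KD RA libraries all lay above RA but below DMSO. Npm1 (log2 0.33 ± 0.087 SE, adjusted p = 0.00373), Nolc1 (log2 0.36 ± 0.072 SE, adjusted p = 2.9e-04), Ubtf (log2 0.28 ± 0.070 SE, adjusted p = 0.00279) and Polr1b (log2 0.30 ± 0.096 SE, adjusted p = 0.0148) were also higher. Polr1b missed the threshold without RA replicate 1 or either Dux KD RA replicate (adjusted p = 0.0556 to 0.143, edgeR). Fbl was at 185 and 185 CPM, below both RA libraries, and did not pass (log2 fold change -0.22 ± 0.097 SE, adjusted p = 0.0762).

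SE KO cells in RA had less of most of them than wild-type cells in RA: 8 of the 10 genes passed the test (1 higher, 7 lower), and none (0) by 2-fold or more. Of all genes tested, 46% passed (21.3% higher, 24.7% lower), 17.6% by 2-fold. The median log2 fold change was -0.35, beside -0.035 over all genes and -0.026 over the abundant ones. Ncl fell from 1707 and 1741 CPM to 974 and 995 CPM (log2 fold change -0.81 ± 0.094 SE, adjusted p = 7.9e-08). Ubtf went from 187 and 192 CPM to 102 and 112 CPM (log2 fold change -0.83 ± 0.071 SE, adjusted p = 5.1e-10). Nolc1 went from 174 and 176 CPM to 107 and 100.3 CPM (log2 fold change -0.75 ± 0.073 SE, adjusted p = 3.8e-09). In each the SE KO RA libraries were the lower ones without overlap. Polr1b (log2 -0.58 ± 0.097 SE, adjusted p = 2.0e-05), Nop56 (log2 -0.37 ± 0.067 SE, adjusted p = 5.5e-05), Nop58 (log2 -0.33 ± 0.093 SE, adjusted p = 0.00433) and Polr1a (log2 -0.26 ± 0.092 SE, adjusted p = 0.025) were lower as well. Nop58 lost its call without RA replicate 1 (adjusted p = 0.0635), and Polr1a without RA replicate 2 or SE KO RA replicate 2 (adjusted p = 0.213 to 0.283, edgeR). Dkc1 moved the other way, from 278 and 272 CPM to 518 and 551 CPM (log2 fold change 0.96 ± 0.080 SE, adjusted p = 3.1e-10), and reached its highest level of the series. Npm1 (log2 -0.084 ± 0.087 SE, adjusted p = 0.458) and Fbl (log2 0.084 ± 0.096 SE, adjusted p = 0.507) did not pass. Without the SE KO RA library whose genotype label says WT, 8 of the 10 passed. That library lay within 9.69% of its replicate in each of the 10 genes. RA against DMSO and both genotype comparisons share the RA libraries. The 2C markers summed to 363 and 349 CPM in Dux KD RA and 53.9 and 50.9 CPM in SE KO RA. The calls among the 10 ESC markers were 4 higher and 2 lower in Dux KD RA (median log2 fold change 0.16), with 2 higher and 6 lower in SE KO RA (-0.98). Those among the 6 primitive endoderm markers were 3 higher and 1 lower (0.38) in the knockdown, with 5 lower (-0.93) in the knockout. Their part in either result was not tested.

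**Figure D3:**
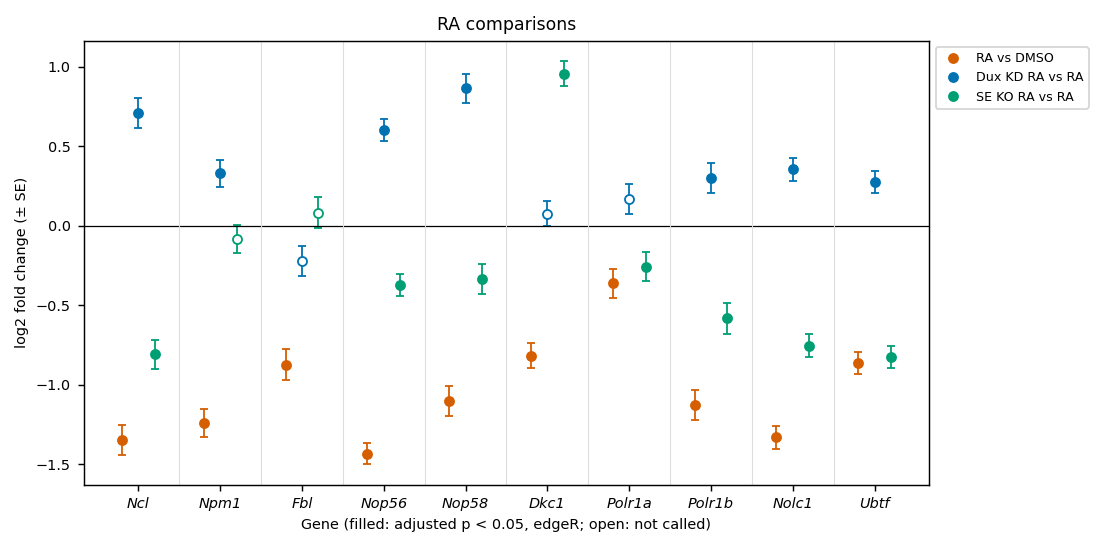
Log2 fold change with its SE for each gene in RA against DMSO, Dux KD RA against RA and SE KO RA against RA (2 libraries per group; filled points passed adjusted p < 0.05, edgeR). All 10 genes lie below 0 in RA against DMSO, and Dkc1 is the gene that lies clearly above 0 in SE KO RA against RA (0.96).

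Whether a genotype's difference depended on the treatment was tested as an interaction in the same model. The difference between Dux KD and wild type was unequal under PlaB and RA for 9 of the 10 genes (65.9% of all genes tested, 32.3% positive and 33.6% negative). It was more positive under PlaB for 7 genes, led by Fbl (log2 3.75 ± 0.14 SE, adjusted p = 3.6e-18, as all values here a difference of log2 fold changes), and more negative for Nop56 (log2 -1.19 ± 0.094 SE, adjusted p = 1.1e-11) and Nop58 (log2 -1.11 ± 0.13 SE, adjusted p = 2.4e-08). The gene that did not pass was Nolc1 (log2 0.12 ± 0.10 SE, adjusted p = 0.293). For SE KO it was unequal for 10 of the 10 genes (63% of all genes tested, 35.5% positive and 27.6% negative), more positive under PlaB for 8, again led by Fbl (log2 3.41 ± 0.14 SE, adjusted p = 2.1e-17) with Ubtf (log2 3.37 ± 0.10 SE, adjusted p = 3.6e-20) and Ncl (log2 2.62 ± 0.13 SE, adjusted p = 1.1e-15), and more negative for Dkc1 (log2 -1.09 ± 0.11 SE, adjusted p = 2.3e-09) and Nop56 (log2 -0.38 ± 0.094 SE, adjusted p = 0.00104). Nop58 passed in the full data (log2 0.32 ± 0.13 SE, adjusted p = 0.0315), but not when PlaB replicate 1 or 2, SE KO PlaB replicate 1, RA replicate 1, or SE KO RA replicate 1 or 2 was left out (adjusted p = 0.0583 to 0.244, edgeR). The Dux KD difference under Zscan4 OE and RA was unequal for 7 of the 10 genes (29% of all genes tested, 14.2% positive and 14.8% negative), with 6 more negative under Zscan4 OE, Nop56 among them (log2 -0.97 ± 0.094 SE, adjusted p = 1.8e-08), and Fbl more positive (log2 0.38 ± 0.14 SE, adjusted p = 0.035). Induction of Zscan4 in the Dux KD Zscan4 OE libraries rests on their titles. Of the abundant genes, 55.3% were positive and 29.7% negative for Dux KD under PlaB and RA, and 55.6% and 31.0% for SE KO. The numbers called there therefore say little about the 10. Median differences were 1.08 (Dux KD) and 1.38 (SE KO) for the 10, beside 0.54 for the abundant genes in each. For Dux KD under Zscan4 OE and RA, 21.9% of the abundant genes were positive and 24.3% negative. Medians there were -0.42 for the 10 and -0.033 for the abundant genes.

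In cells overexpressing Dux, most of the 10 genes were lower by under 2-fold. Untreated ESCs had no doxycycline, and no library in the data used here had doxycycline without an overexpressed factor. Drug and factor therefore cannot be told apart where Dux OE, Dux R70A OE or Zscan4 OE is compared with ESC or DMSO. In Dux OE against ESC, 8 of the 10 genes passed the test (0 higher, 8 lower), and none (0) by 2-fold or more. Over the whole table, 27.5% passed (14.7% higher, 12.8% lower), 9.51% by 2-fold. The 10 log2 fold changes lay between -0.67 and -0.14, with a median of -0.34 beside 0 over all genes and -0.077 over the abundant ones. No gene rose (0 by edgeR, 0 at an unadjusted p under 0.05 and 0 by DESeq2). Nop58 fell from 535 and 561 CPM to 359 and 332 CPM (log2 fold change -0.67 ± 0.092 SE, adjusted p = 3.0e-06). Polr1b went from 277 and 281 CPM to 203 and 199 CPM (log2 fold change -0.47 ± 0.093 SE, adjusted p = 3.1e-04). Ncl went from 3820.2 and 3792 CPM to 2908 and 2722 CPM (log2 fold change -0.44 ± 0.093 SE, adjusted p = 7.3e-04). The Dux OE libraries were below the ESC libraries in each. Nolc1 (log2 -0.44 ± 0.071 SE, adjusted p = 2.9e-05), Ubtf (log2 -0.42 ± 0.070 SE, adjusted p = 3.7e-05), Polr1a (log2 -0.26 ± 0.091 SE, adjusted p = 0.0328), Nop56 (log2 -0.25 ± 0.066 SE, adjusted p = 0.00559) and Dkc1 (log2 -0.23 ± 0.080 SE, adjusted p = 0.0325) also passed. The calls of Polr1a and Dkc1 were lost when any 1 of the 4 libraries was left out (adjusted p = 0.0998 to 0.145 and 0.101 to 0.155), and that of Nop56 without ESC replicate 2 or Dux OE replicate 1 (adjusted p = 0.0562 to 0.0642, edgeR), so that 5 or 6 genes passed in these fits. The 2C markers summed to 22.4 and 19.2 CPM in ESC and 3236 and 3332 CPM in Dux OE, where Zscan4c, a 2C gene, stood at 811 and 810.3 CPM.

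The R70A form gave lower levels than Dux for most of the genes. Against ESC, all 10 genes passed the test (1 higher, 9 lower), 1 of them by 2-fold or more. Among all tested genes, 44.7% passed (21.6% higher, 23% lower), 16.9% by 2-fold. The median log2 fold change of the 10 was -0.70, beside 0 over all genes and -0.17 over the abundant ones. Nolc1 fell from 669 and 679 CPM to 321 and 317 CPM (log2 fold change -1.08 ± 0.072 SE, adjusted p = 4.9e-12), the 1 gene past 2-fold, where 6.72% of all genes fell that far. Polr1b (log2 -0.86 ± 0.094 SE, adjusted p = 2.5e-08), Ubtf (log2 -0.86 ± 0.070 SE, adjusted p = 1.7e-10), Nop58 (log2 -0.80 ± 0.092 SE, adjusted p = 6.3e-08), Ncl (log2 -0.74 ± 0.093 SE, adjusted p = 2.7e-07), Fbl (log2 -0.66 ± 0.097 SE, adjusted p = 2.8e-06), Polr1a (log2 -0.63 ± 0.092 SE, adjusted p = 2.3e-06) and Nop56 (log2 -0.60 ± 0.066 SE, adjusted p = 3.3e-08) were lower too, as was Npm1 (log2 -0.29 ± 0.087 SE, adjusted p = 0.00787), whose call was lost without Dux R70A OE replicate 1 (adjusted p = 0.101, edgeR). Dkc1 rose from 325 and 322 CPM to 401 and 479 CPM (log2 fold change 0.44 ± 0.080 SE, adjusted p = 5.0e-05). Dux R70A OE was also compared with Dux OE, with the same Dux R70A OE libraries: 8 of the 10 genes passed the test (1 higher, 7 lower), and none (0) by 2-fold or more. In the full set of genes, 38.7% passed (17.3% higher, 21.4% lower), 13.6% by 2-fold. Here the median log2 fold changes were -0.36 for the 10, -0.0061 for all genes and -0.10 for the abundant ones. Nolc1 went from 505 and 490.4 CPM in Dux OE to 321 and 317 CPM in Dux R70A OE (log2 fold change -0.64 ± 0.071 SE, adjusted p = 6.3e-08). Fbl went from 349 and 359 CPM to 262 and 232 CPM (log2 fold change -0.52 ± 0.097 SE, adjusted p = 1.1e-04). Dkc1 was the 1 higher gene, at 273 and 279 CPM and 401 and 479 CPM (log2 fold change 0.67 ± 0.080 SE, adjusted p = 2.0e-07). Ubtf (log2 -0.44 ± 0.070 SE, adjusted p = 1.5e-05), Polr1b (log2 -0.39 ± 0.094 SE, adjusted p = 0.00155), Polr1a (log2 -0.37 ± 0.092 SE, adjusted p = 0.00199), Nop56 (log2 -0.35 ± 0.066 SE, adjusted p = 1.2e-04) and Ncl (log2 -0.31 ± 0.093 SE, adjusted p = 0.00977) were lower. Ncl lost its call without Dux R70A OE replicate 1 or Dux OE replicate 1 (adjusted p = 0.0971 to 0.174), and Polr1a without Dux R70A OE replicate 2 (adjusted p = 0.0716, edgeR). Scaled by library totals alone, which moves the median of all genes by 0.18 on the log2 scale, 5 of the 10 passed. By that scaling 65.1% of the calls over all genes were higher, in place of 44.7%, and against ESC 68.1% in place of 48.4%. The 2C markers were at 0.537 and 0.440 CPM in Dux R70A OE, with 2 of the 6 at 0 in both libraries. The calls among the 10 ESC markers were 6 lower in Dux OE against ESC, with 2 higher and 5 lower for the R70A form, and their part was not tested.

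In Zscan4 OE the box C/D scaffold pair was higher and the polymerase genes lower than in untreated ESCs. Against ESC, 8 of the 10 genes passed the test (4 higher, 4 lower), and none (0) by 2-fold or more. Across the genes tested, 38.6% passed (18.9% higher, 19.6% lower), 11.6% by 2-fold. Among the abundant genes 24.7% were higher and 37.7% lower. The median log2 fold changes were 0.050 for the 10, 0 for all genes and -0.094 for the abundant ones. Npm1 rose from 2382 and 2408 CPM to 3649.9 and 3406 CPM (log2 fold change 0.56 ± 0.087 SE, adjusted p = 1.0e-05). Nop58 went from 535 and 561 CPM to 690.3 and 661 CPM (log2 fold change 0.30 ± 0.091 SE, adjusted p = 0.00971). Nop56 went from 455 and 471 CPM to 570.1 and 565 CPM (log2 fold change 0.29 ± 0.066 SE, adjusted p = 7.7e-04). Dkc1 rose as well (log2 0.34 ± 0.080 SE, adjusted p = 0.00131). Polr1a fell from 169.8 and 173 CPM to 106 and 116 CPM (log2 fold change -0.63 ± 0.092 SE, adjusted p = 3.9e-06). Polr1b went from 277 and 281 CPM to 182 and 182 CPM (log2 fold change -0.62 ± 0.093 SE, adjusted p = 6.3e-06), and Nolc1 (log2 -0.51 ± 0.071 SE, adjusted p = 1.9e-06) and Ubtf (log2 -0.48 ± 0.070 SE, adjusted p = 3.6e-06) fell too. In these 8 genes no Zscan4 OE library overlapped with ESC. Scaled by library totals alone, 64.4% of the calls over all genes were higher, in place of 49.1%. Nop58 lost its call without ESC replicate 1 or Zscan4 OE replicate 1 (adjusted p = 0.0762 to 0.0873, edgeR).

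These 3 comparisons rest on untreated ESCs, and the 2 control groups were not alike. In DMSO against ESC, 6 of the 10 genes passed the test (2 higher, 4 lower), and none (0) by 2-fold or more. Of the tested genes, 43.6% passed (21.2% higher, 22.4% lower), 16.2% by 2-fold. Among the abundant genes 27.7% were higher and 36.7% lower, so the number called is near that share. Npm1 (2382 and 2408 CPM in ESC, 3769 and 3486 CPM in DMSO; log2 fold change 0.60 ± 0.087 SE, adjusted p = 2.7e-06) and Dkc1 (log2 fold change 0.58 ± 0.080 SE, adjusted p = 1.2e-06) were higher in DMSO. Polr1b (277 and 281 CPM in ESC, 162 and 165 CPM in DMSO; log2 fold change -0.77 ± 0.093 SE, adjusted p = 1.6e-07), Nolc1 (log2 -0.62 ± 0.071 SE, adjusted p = 7.1e-08), Polr1a (log2 -0.53 ± 0.091 SE, adjusted p = 2.7e-05) and Ubtf (log2 -0.35 ± 0.070 SE, adjusted p = 1.5e-04) were lower. Set against DMSO, the called Zscan4 OE changes of Npm1, Dkc1, Polr1b and Nolc1, the Dux OE changes of Polr1a, Polr1b and Nolc1, and the Dux R70A OE change of Dkc1 turned in sign, so these directions hold only against the untreated cells. Ncl, Nop56 and Nop58 passed as lower in both Dux OE and Dux R70A OE against either control group, whereas Ubtf in Dux OE and both polymerase subunits in Dux R70A OE no longer passed against DMSO. For Zscan4 OE, 3 genes passed against DMSO. Polr1a (106 and 116 CPM in Zscan4 OE, 117 and 119.6 CPM in DMSO) and Ubtf (312 and 319 CPM, 343 and 347 CPM) lay closer to DMSO than to ESC.

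The Tdpoz super-enhancer knockout and Dux knockdown were further examined under the overexpressed factors. SE KO Dux OE against Dux OE gave 8 of the 10 genes past the test (5 higher, 3 lower) and 0 by 2-fold, with 25.4% of all genes (11.5% higher, 14% lower) and 6.3% by 2-fold. Ncl rose from 2908 and 2722 CPM to 4497 and 4056 CPM (log2 fold change 0.60 ± 0.093 SE, adjusted p = 3.3e-05). Npm1 went from 2091 and 2062 CPM to 3247 and 3006 CPM (log2 fold change 0.59 ± 0.087 SE, adjusted p = 1.9e-05), and Dkc1 (log2 0.51 ± 0.080 SE, adjusted p = 3.6e-05) and Nop58 (log2 0.50 ± 0.092 SE, adjusted p = 2.3e-04) rose with them. Polr1b (log2 -0.44 ± 0.093 SE, adjusted p = 8.5e-04) and Polr1a (log2 -0.33 ± 0.091 SE, adjusted p = 0.00817) were lower. Ubtf (log2 0.21 ± 0.069 SE, adjusted p = 0.0295) and Nolc1 (log2 -0.19 ± 0.071 SE, adjusted p = 0.0446) passed narrowly, and leaving out 1 library lost Ubtf (without Dux OE replicate 1 or 2, or SE KO Dux OE replicate 2), Nolc1 (any of the 4) and Polr1a (without Dux OE replicate 2 or SE KO Dux OE replicate 1), at adjusted p = 0.0958 to 0.276, 0.0875 to 0.206 and 0.0623 to 0.0685 by edgeR. Fbl passed as higher without SE KO Dux OE replicate 1 (adjusted p = 0.0387). Leaving out 1 library left 5 to 7 calls. By library totals alone the split of calls was 6 higher and 2 lower. All 5 tested fibroblast markers (of 7 listed) were higher in SE KO Dux OE, where their list summed to 116 and 117 CPM against 47.2 and 44.5 CPM, with none at 0 there and Postn, Dcn and Lum at 0 in Dux OE. The SE KO Dux OE libraries held 39402840 and 32990350 counts and the Dux OE libraries 15016024 and 16092561, so counts of 0 are less likely in SE KO Dux OE. The part of these markers in the result was not tested.

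In Dux KD Zscan4 OE against Zscan4 OE, 5 of the 10 genes passed the test (2 higher, 3 lower), and none (0) by 2-fold or more. Of all genes tested, 32.6% passed (16% higher, 16.7% lower), 11.1% by 2-fold. Among the abundant genes 21.2% were higher and 26.3% lower, so the number called is near that share. The median log2 fold changes were 0.088 for the 10, 0.0093 for all genes and -0.031 for the abundant ones. Ubtf rose from 312 and 319 CPM to 435 and 421 CPM (log2 fold change 0.44 ± 0.070 SE, adjusted p = 1.8e-05). Nop58 went from 690.3 and 661 CPM to 840.4 and 983 CPM (log2 fold change 0.43 ± 0.091 SE, adjusted p = 5.5e-04). Nop56 fell from 570.1 and 565 CPM to 455 and 427 CPM (log2 fold change -0.36 ± 0.066 SE, adjusted p = 1.0e-04), with Polr1b (log2 -0.39 ± 0.094 SE, adjusted p = 0.00218) and Polr1a (log2 -0.30 ± 0.093 SE, adjusted p = 0.0149). Thus Nop56 and Nop58 moved in opposite directions here, and no Dux KD Zscan4 OE library overlapped with Zscan4 OE in either gene. The call of Polr1a was lost without Dux KD Zscan4 OE replicate 1 or Zscan4 OE replicate 2 (adjusted p = 0.101 to 0.161, edgeR). The Dux KD Zscan4 OE libraries carry no time and the treatment label "no", so the length of induction may differ from that of Zscan4 OE.

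**Figure D4:**
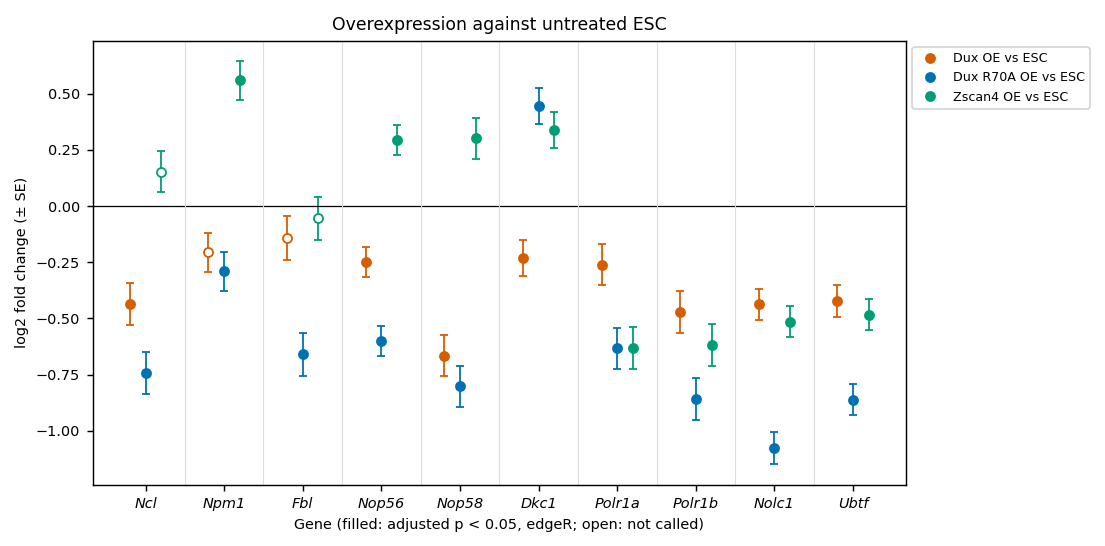
Log2 fold change with its SE for each gene in Dux OE, Dux R70A OE and Zscan4 OE, each against the same 2 untreated ESC libraries (2 libraries per group; filled points passed adjusted p < 0.05, edgeR). Dkc1 lies above 0 in Dux R70A OE (0.44) where the other 9 lie below it, though this sign turned against DMSO (-0.14).

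Other genes of ribosome biogenesis were read from lists of 13 genes of the RNA polymerase I machinery, 12 of snoRNP assembly, 36 of the small subunit processome and 49 of large subunit assembly, none of them among the 10. In RA they fell as a body, as the 10 did: 12 of 13, 11 of 12, 33 of 36 and 45 of 49 were lower, with medians of -0.69, -1.25, -0.84 and -0.80 beside 0.10 over all genes. None of these genes rose by edgeR (0), at an unadjusted p under 0.05 (0) or by DESeq2 (0). Ddx27, a helicase of large subunit assembly, was lower (63.3 and 63.5 CPM against 264 and 263 CPM, log2 fold change -2.06 ± 0.071 SE, adjusted p = 1.4e-18). Nat10, which acetylates ribosomal RNA, was also lower (60.6 and 65.8 CPM against 211 and 211 CPM, log2 fold change -1.74 ± 0.075 SE, adjusted p = 1.4e-16).

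In PlaB all 4 lists held genes of either direction, where 41.7% of all genes tested were higher and 35.4% lower. In the polymerase list 8 rose and 3 fell (median 0.31). Polr1c, a subunit shared with RNA polymerase III, was higher (234 and 211 CPM against 98.4 and 97.8 CPM, log2 fold change 1.18 ± 0.085 SE, adjusted p = 8.5e-13), and Tcof1, a partner of Ubtf, was lower (97.8 and 106 CPM against 438 and 459 CPM, log2 fold change -2.14 ± 0.10 SE, adjusted p = 1.3e-16). Of the snoRNP list 6 rose and 5 fell (median 0.28). Gar1, which sits in the same particle as Dkc1, fell (6.10 and 5.67 CPM against 94.2 and 85.8 CPM, log2 fold change -3.93 ± 0.12 SE, adjusted p = 3.7e-21), whereas Znhit3, a box C/D assembly factor, rose (267 and 245 CPM against 27.7 and 27.4 CPM, log2 fold change 3.22 ± 0.092 SE, adjusted p = 2.2e-21). The small subunit list had 14 higher and 16 lower, with medians of -0.099 and, for the large subunit list, -0.32. That list had 21 higher and 26 lower, with Ddx21 down (124 and 111 CPM against 832 and 833 CPM, log2 fold change -2.83 ± 0.075 SE, adjusted p = 5.1e-22) and Nop16 up (235 and 212 CPM against 55.7 and 56.2 CPM, log2 fold change 2.00 ± 0.087 SE, adjusted p = 1.6e-17).

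Under Dux OE 27 of the 36 small subunit genes and 32 of the 49 large subunit genes were lower, with 1 higher in each, and under Dux R70A OE 31 and 43 were lower, again with 1 higher in each. Median log2 fold changes were -0.39 (small) and -0.35 (large subunit) for Dux, -0.69 and -0.71 for the R70A form, and 0 over all genes for either. Of the abundant genes 25.5% were lower in Dux OE and 44.6% with the R70A form. In Zscan4 OE 20 and 25 were lower and 7 and 9 higher (abundant genes 24.7% higher, 37.7% lower). In Dux KD RA against RA, 20 small subunit and 28 large subunit genes were higher and 1 and 4 lower. Of the abundant genes 25.7% were higher and 28.9% lower there. For SE KO RA the counts were 3 and 4 higher and 19 and 29 lower (abundant genes 29.3% higher, 33.4% lower). In Dux KD PlaB against PlaB, 19 and 25 were higher and 14 and 21 lower, and in SE KO PlaB 17 and 26 higher and 15 and 19 lower. These shares of higher genes in the subunit lists did not exceed those of the abundant genes (58.1% and 56.1%) and are no result about them. In the polymerase and snoRNP lists, 2 and 4 were higher and 8 and 7 lower in Dux KD PlaB (medians -0.44 and -0.49). For SE KO PlaB, 2 and 2 were higher and 7 and 9 lower (medians -0.42 and -0.77). Of the abundant genes 31.1% and 32.7% were lower. Most genes of these lists thus moved opposite to Polr1a, Polr1b, Ubtf and Fbl.

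**Figure D5:**
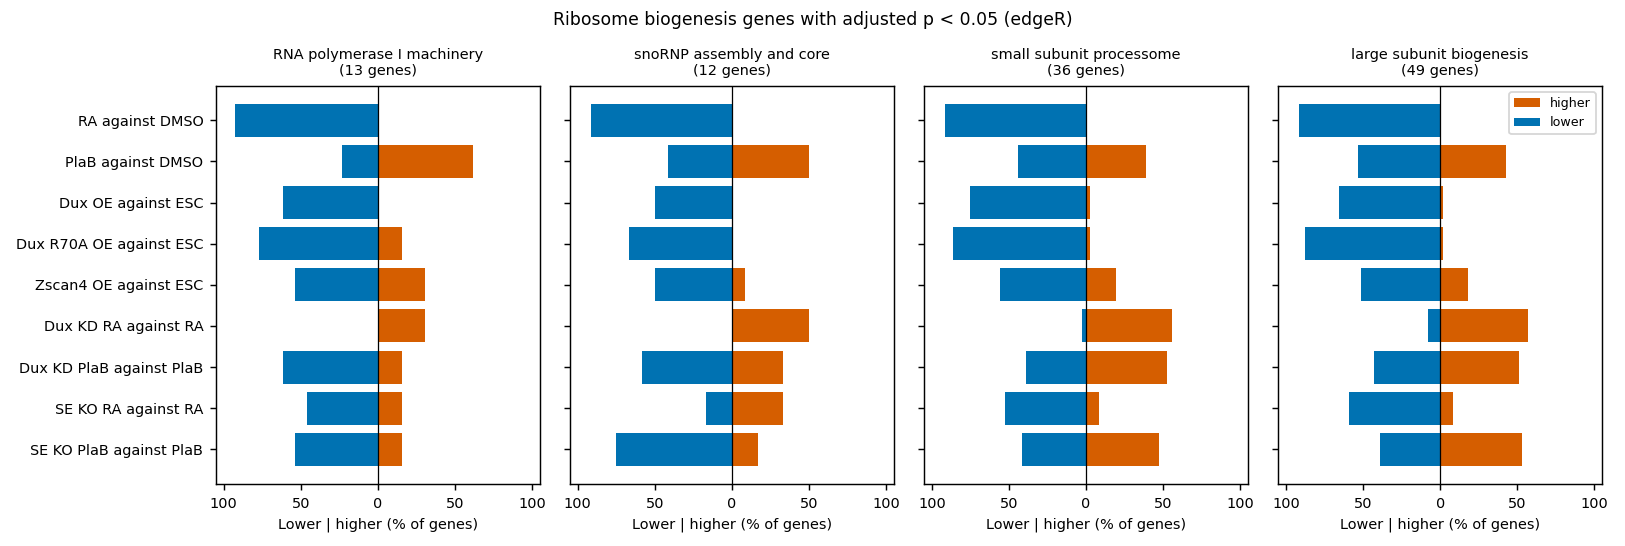
Share of genes in each of 4 ribosome biogenesis lists that were lower (left of 0) or higher (right of 0) at adjusted p < 0.05 (edgeR) in 9 comparisons. RA against DMSO shows lower genes only, 45 of 49 for the large subunit list, whereas PlaB against DMSO shows both directions in every list.

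How far the 10 genes moved together was described over the 13 group means, which share control libraries and depth. Of 45 gene pairs, 11 had a Pearson r above 0.8. The median pair had r = 0.556 and the pairs ran from -0.185 to 0.938. Against the mean of the other 9, Ncl (0.947), Ubtf (0.911), Polr1b (0.882), Npm1 (0.868) and Nolc1 (0.808) followed the rest closely, Fbl (0.682), Polr1a (0.628) and Nop56 (0.543) less so, and Nop58 (0.408) and Dkc1 (0.161) least. Outside the 10, profiles among the most like their mean belonged to L1td1 (r = 0.961), Cdk11b (0.961), Utp18 (0.959) and Sco1 (0.959), and those most like Ncl to Etf1 (0.970), Cdk11b (0.967), Nasp (0.963), Zfp988 (0.963) and Rrs1 (0.961), all over 13 groups and picked from the 5739 abundant genes. Utp18 is a small subunit processome protein and Rrs1 acts in large subunit assembly.

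Myc and Mycn, transcription factors known to drive ribosome biogenesis genes, were set beside them. Mycn fell from 247 and 242 CPM in DMSO to 14.1 and 13.2 CPM in RA and 18.1 and 16.2 CPM in PlaB. It stood at 111 and 118 CPM in Dux KD PlaB and at 22.3 and 22.8 CPM in SE KO PlaB. In Dux KD RA it stood at 9.76 and 9.43 CPM and in SE KO RA at 18.8 and 20.9 CPM. Myc was at 77.7 and 73.5 CPM in ESC, 35.8 and 38.5 CPM in DMSO, 6.08 and 5.68 CPM in RA and 61.9 and 60.9 CPM in PlaB. Of the 11 genes of the Myc network list, 2 rose and 6 fell in PlaB and 4 rose and 6 fell in RA. The part of these factors in the levels of the 10 genes was not tested.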

How the data were processed

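Gene counts for 26 poly(A)-selected libraries were used as deposited by the authors, as whole-number counts per gene over exons with no normalization. The submitters' processing notes name FastQC, Trimmomatic, STAR, featureCounts, DESeq2 and mm10. Strand setting, treatment of reads with several matches and tool versions are not given in the sources used here. Of 55291 gene rows, 53292 had a name in GENCODE M21 and 99.3% of these the same span. Counts were fitted with edgeR 4.0.16 (R 4.3.3) in 1 quasi-likelihood model of all 13 groups (TMM scaling, factors 0.889 to 1.13; filterByExpr kept 20953 genes; common biological coefficient of variation 0.0833). Every adjusted p is a Benjamini-Hochberg value from edgeR's two-sided test over these genes, and a call is an adjusted p under 0.05. SE is the log2 fold change divided by the root of F. CPM are counts of the kept genes scaled to TMM-adjusted totals of 1000000. Correlations used log2 CPM with a prior count of 2. The fit was also run on simulated counts, with an outcome not given here.

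The 10 genes and the gene lists were chosen with earlier results of these data known. Named genes were all 10, the 5 genes most like their mean (1 of them is not reported here) and like Ncl, and from the lists described some of the called genes with the 2 largest rises and 2 largest falls, with Duxf3, Zscan4c, Myc and Mycn as further readouts. Alternatives were RLE scaling, library totals alone, no low-count filter, DESeq2 1.42.0, fits of the compared groups alone, the other control group, a 2-fold rule, a replicate block, and leaving out each library. Nothing in the labels says that replicates came from separate cultures, so p-values measure the spread between these libraries, which may be technical. With 2 libraries a group, exact tests on single genes cannot reach 0.05, so only the model across genes was used.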

Additional observations from a re-analysis of the deposited data

Results flagged for a closer look

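The differences below passed the interaction test in the edgeR model (adjusted p under 0.05), meaning that a genotype's effect on a gene was unequal under 2 treatments. Values are differences of log2 fold changes, and no explanation was weighed. Of all genes tested, 65.9%, 29% and 63% passed in the sets below, in the order given. Of the abundant genes 55.3%, 21.9% and 55.6% were positive and 29.7%, 24.3% and 31.0% negative, in the same order. For the Dux KD Zscan4 OE libraries, induction of Zscan4 rests on their titles.

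The Dux KD effect under PlaB minus that under RA gave Ncl 1.32, Npm1 1.09, Fbl 3.75, Nop56 -1.19, Nop58 -1.11, Dkc1 0.78, Polr1a 1.12, Polr1b 1.08 and Ubtf 2.01. The Dux KD effect under Zscan4 OE minus that under RA gave Ncl -0.55, Fbl 0.38, Nop56 -0.97, Nop58 -0.43, Polr1a -0.47, Polr1b -0.69 and Nolc1 -0.42. The SE KO effect under PlaB minus that under RA gave Ncl 2.62, Npm1 0.68, Fbl 3.41, Nop56 -0.38, Nop58 0.32, Dkc1 -1.09, Polr1a 1.84, Polr1b 1.61, Nolc1 1.15 and Ubtf 3.37. In the second of these sets the calls of Fbl, Nop58 and Polr1a were lost in part of the fits that left out 1 library (adjusted p = 0.0792 to 0.156, 0.0519 to 0.0789 and 0.0521 to 0.0629). Npm1 passed without Dux KD Zscan4 OE replicate 1 (adjusted p = 0.0369), and in the third set the call of Nop58 was lost (adjusted p = 0.0583 to 0.244). The libraries whose omission lost the call of Fbl were RA replicate 2, Dux KD RA replicates 1 and 2, Dux KD Zscan4 OE replicate 1 and Zscan4 OE replicate 2. For Nop58 they were RA replicate 2, Dux KD RA replicate 1, Dux KD Zscan4 OE replicate 1 and Zscan4 OE replicate 1, and for Polr1a RA replicate 1 and Zscan4 OE replicate 2. For Nop58 in the third set they were PlaB replicates 1 and 2, SE KO PlaB replicate 1, RA replicate 1 and SE KO RA replicates 1 and 2.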

How the results depend on the processing

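Of 170 values for single genes, 167 kept their direction and side of the threshold under DESeq2, 168 under RLE scaling, 155 under library totals alone and 157 without the low-count filter, and none turned in sign among the called ones. Leaving out 1 library kept 740 values, lost 57 calls and gained 3. Against DMSO in place of ESC the sign turned for Npm1 (-0.040), Dkc1 (-0.24), Polr1b (0.15) and Nolc1 (0.10) in Zscan4 OE, Polr1a (0.27), Polr1b (0.30) and Nolc1 (0.18) in Dux OE and Dkc1 (-0.14) in Dux R70A OE, and 3 genes passed for Zscan4 OE. The cause was not tested. Library totals alone left 5 genes in Dux R70A OE against Dux OE, and the fit of 2 groups gave 9 in Dux KD PlaB against DMSO. With 2-fold also required, the count was 6 in PlaB and 6 in RA against DMSO, 6 in Dux KD PlaB and 5 in SE KO PlaB against PlaB, 1 in Dux R70A OE against ESC, and 0 in each of the other 9 comparisons. Leave-one-out counts ran 5 to 6 in Dux OE against ESC, 5 to 7 in SE KO Dux OE against Dux OE and 5 to 7 for the Dux KD effect in Zscan4 OE minus RA, and 9 to 10 in PlaB and 10 in RA against DMSO. Library totals moved the median of all genes by up to -0.27 (Dux KD effect in PlaB minus RA) and 0.26 (PlaB), and RLE by 0.15 (PlaB), on the log2 scale.

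Equal replicate numbers did not pair libraries: deviations of same-numbered libraries correlated at r = -0.0473 to 0.0237 per comparison. With a replicate block, 10 genes passed in PlaB and 10 in RA against DMSO, and 2 calls changed: Nolc1 was lost in SE KO Dux OE against Dux OE (adjusted p = 0.0531) and Npm1 gained in the Dux KD effect in Zscan4 OE minus RA (adjusted p = 0.0457). The 2 libraries a group, unlike depth, limit these comparisons.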
